A study of Homo sapiens with 8 samples.

Results

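The genes described here are 36 genes of glycolysis, lactate handling and the response to low oxygen, taken by symbol from the 60668 gene entries of the count tables. They were followed in D283-OMO cells, a line made from D283 MED, an established human medulloblastoma cell line with high MYC. The study describes D283 MED as standing between Group 3 and Group 4 of this tumour, and uses it as a Group 3 model. D283-OMO was obtained by lentiviral transduction and selection with hygromycin, and carries a transgene for OMOMYC. OMOMYC is a MYC-derived mini-protein that dimerizes with MYC and its partner MAX and interferes with MYC function. The transgene is switched on by doxycycline (DOX). PolyA+ RNA of 4 untreated samples (OMO) and of 4 samples given DOX for 72 h (OMO+DOX) was sequenced, and both groups carry the transgene. DOX-treated cells without the transgene were not analysed here, so an effect of DOX itself and an effect of OMOMYC cannot be told apart. Of the 36 genes, 33 had more than 1 CPM (counts per 1000000 counts of the library) in at least 4 of the 8 libraries and were tested. The CPM printed below are further scaled by edgeR's TMM factors. SLC2A3, CA9 and ANKRD37 did not pass this filter and were not tested.

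Glycolysis splits glucose into pyruvate in 10 enzyme steps, several of which are run by alternative isozymes that are encoded by different genes. Pyruvate is then either reduced to lactate by lactate dehydrogenase and exported through monocarboxylate transporters, or oxidized by pyruvate dehydrogenase inside the mitochondria. The PDK kinases switch pyruvate dehydrogenase off. Tumour cells often make lactate even when oxygen is present. MYC and HIF1A, the oxygen-regulated subunit of hypoxia-inducible factor, are both known to act on many genes of this pathway. MYC with MAX recognizes a hexamer called the E-box, and hypoxia-inducible factor a related, shorter core.

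With DOX, 9 of the 33 tested genes were higher and 15 were lower at an adjusted p below 0.05 (edgeR's quasi-likelihood test, p adjusted by Benjamini-Hochberg over the 15222 tested). Across all tested genes 76.6% were called, 38.5% as higher and 38.1% as lower, so a call by itself does not set these genes apart from the rest. The median log2 fold change (log2FC, DOX over untreated) of the 33 was -0.08, beside 0.01 for all genes, and their median absolute log2FC was 0.44, beside 0.43. An adjusted p below 0.05 with a log2FC above 1 was reached by HK1, PKM and ADM, and with a log2FC below -1 by ALDOA, LDHA and NDRG1. The background shares for these cuts were 11.0% and 9.81%. ADM passed the filter on CPM through the treated libraries only, so its call, among the 9 higher, could only be a rise. In 22 of the 33 genes the 4 treated libraries did not overlap the 4 untreated ones, as in 71.7% of all genes. The cut given in the study's methods, an FDR below 0.001 with an absolute log2FC above 2, was passed by ADM alone, against 7.12% of all genes, and the same gene alone passed at an FDR below 0.01, which the study's results text names. With the stricter filter of those methods, which asks for over 4 libraries above 1 CPM, ADM was not tested and 0 of the 36 genes passed.

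**Figure D1:**
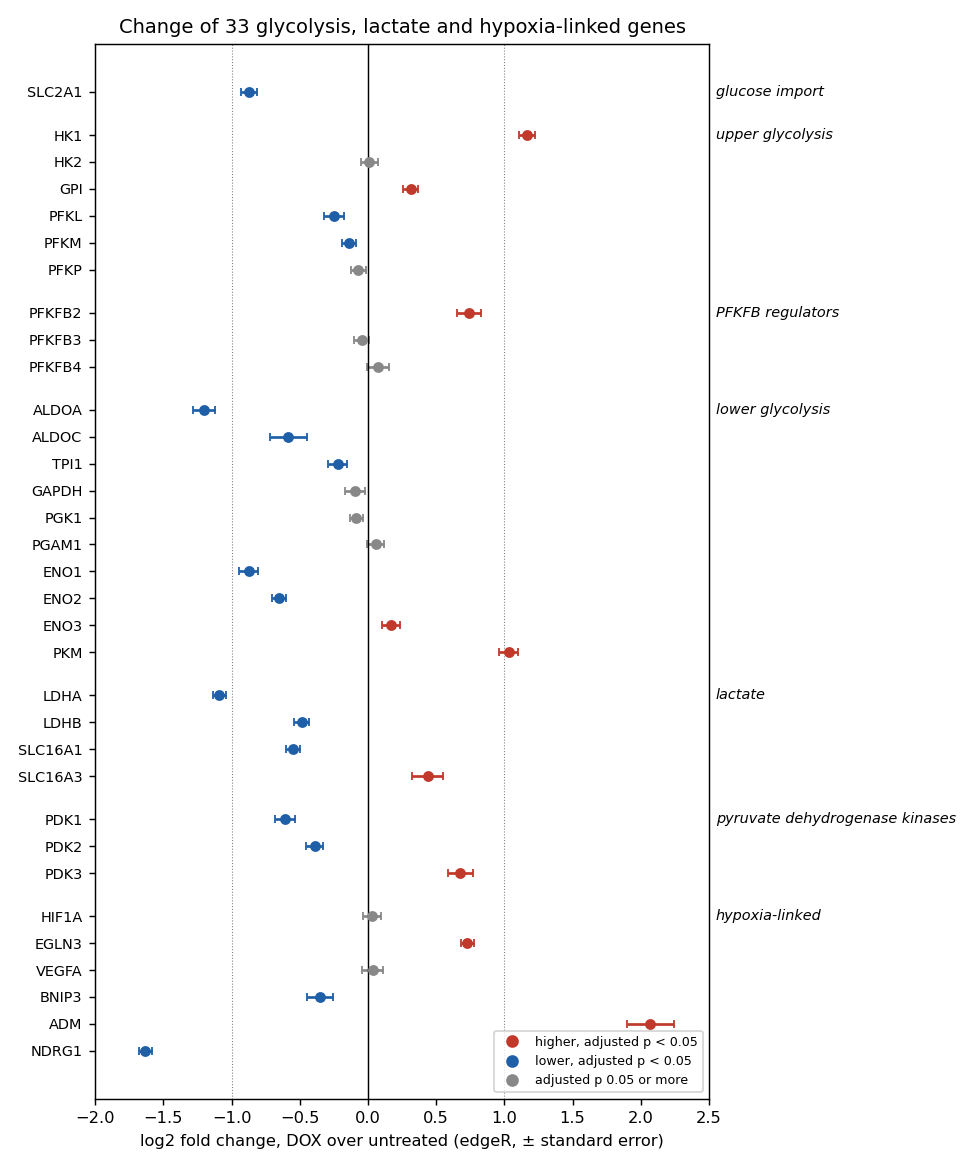
Each point is the log2 fold change of 1 gene, DOX over untreated, with its standard error from edgeR, grouped by role. Genes of the same role lie on both sides of 0, as with PKM (1.03) and ALDOA (-1.20) in lower glycolysis and PDK1 (-0.61) and PDK3 (0.68) among the kinases.

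Total counts ranged from 38390696 to 54020506 per library, and MYC-related checks moved in both directions: CAD, NCL and NPM1 fell (log2FC -0.48, -0.44 and -0.78), ODC1 and MAX rose (0.32 and 0.39), and MYC itself, whose reads cannot be told apart from those of the transgene, rose from 939 ± 75.6 to 1123 ± 56.8 CPM (SD, n = 4). Of 8 markers of Group 3 medulloblastoma, 7 were detected above 3 counts and all 7 were tested. All 7 fell, beside 38.1% lower among all tested genes. The summed level of the markers was 2440 to 2650 CPM in the untreated and 722 to 740 CPM in the treated libraries. Summed markers of endothelial cells (2.91 to 3.69 and 2.67 to 3.56 CPM), leukocytes (0.163 to 0.252 and 0.414 to 0.743 CPM) and fibroblasts (22.1 to 23.6 and 21.2 to 25.2 CPM, mostly COL1A1) stayed low. EYA4, the remaining Group 3 marker, and the T cell marker CD3E were at 0 in all untreated libraries, and the endothelial PECAM1 and TEK and the leukocyte PTPRC lay below 1 CPM. The endothelial cadherin CDH5 was at 0 untreated and at 1.52 to 2.07 CPM with DOX, while VWF fell (log2FC -1.39). Mitochondrially encoded transcripts took 4.73% to 5.13% of the counts without and 5.70% to 5.95% with DOX. Untreated replicate 3 stood apart from its group, with a mean correlation to the other untreated libraries of 0.99303 against 0.99577 to 0.99647. It was the highest untreated library for 23 of the 33 genes tested, beside 39.7% of all genes. The part of these differences in the results below was not tested, and leaving out replicate 3 ended no call among the 33 genes.

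Glucose enters through facilitative carriers. SLC2A1, the GLUT1 transporter, stood at 48.9, 45.1, 50.7 and 49.2 CPM in untreated replicates 1 to 4 and at 25.6, 25.1, 26.3 and 28.9 CPM in the treated ones. Every treated library lay below every untreated one, and the log2FC was -0.87 (standard error 0.06, adjusted p = 5.77e-08, edgeR). In these and all following values from bulk RNA, fewer cells of a kind and less RNA of a gene per cell cannot be told apart. CPM are shares of a library's counts, so a change in the total RNA per cell would not show in them. SLC2A3, the GLUT3 transporter typical of neurons, had 0 counts in each untreated library and at most 2 counts with DOX. Its processed pseudogene SLC2A3P1 held 123 to 583 counts in the untreated and 600 to 919 counts in the treated libraries, and reads of so similar a pair can be divided wrongly.

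The phosphorylation of glucose, which commits it to the cell, was the step with the largest redistribution per kilobase among the 7 isozyme families set side by side. HK1, the broadly expressed mitochondrial hexokinase (ENSG00000156515.23, chromosome 10, 69269984 to 69401884 on the plus strand of GRCh38), gave 29.9, 27.2, 29.7 and 27.4 CPM untreated and 63.9, 58.5, 67.3 and 66.2 CPM with DOX. The groups were far apart, with a log2FC of 1.16 (standard error 0.06, adjusted p = 4.73e-09, edgeR). HK2, the inducible hexokinase that is often high in tumours, gave 155, 131, 126 and 141 CPM untreated and 135, 143, 138 and 140 CPM with DOX. These values overlapped, and the log2FC was 0.01 with a 95% interval from -0.11 to 0.13 (adjusted p = 0.887, edgeR). The HK2 to HK1 ratio of counts fell from 4.82 to 2.17, a difference of -1.15 on the log2 scale that every library showed (p = 0.0286 by a two-sided exact permutation test, which with 4 against 4 libraries can give no smaller p).

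A further hexokinase, HKDC1, belongs to the pathway list and not to the 36 genes. It fell from 841 ± 28.7 to 122 ± 7.07 CPM (SD, n = 4; log2FC -2.79, adjusted p = 2.19e-12, edgeR). Set per kilobase of annotated exon, which makes levels of different genes comparable, HKDC1 took 87.9% of the summed level of these hexokinases in untreated cells and 46.3% with DOX. The share of HK2 was 10.1% and then 37.2%, while its own level was not called, and that of HK1 2.02% and then 16.5%. The summed level of the family went from 224.8 to 61.6 CPM per kb. Exon lengths are those of all annotated transcripts of a gene together, so shares between genes carry the error of that choice.

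**Figure D2:**
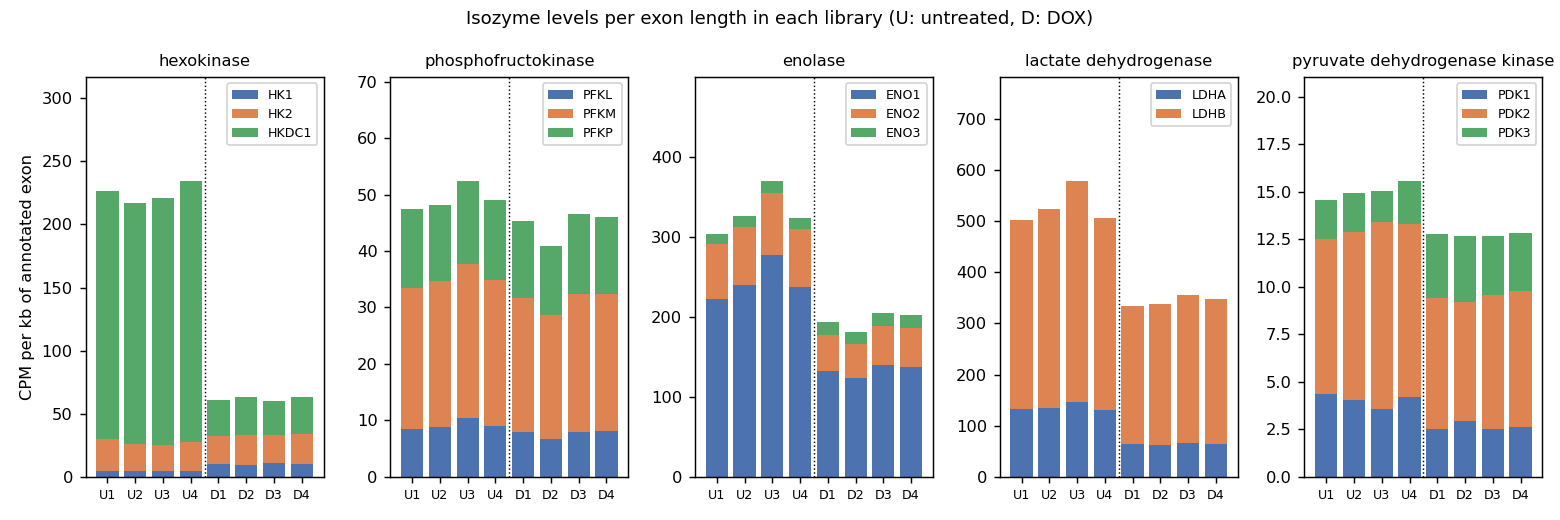
Stacked bars give the level of each isozyme in CPM per kb of annotated exon in each untreated (U) and DOX-treated (D) library. The hexokinase bars shrink with HKDC1 from about 224.8 to 61.6 CPM per kb on average, while the phosphofructokinase bars keep their make-up, with PFKM at 52.9% in both groups.

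The next steps moved little. GPI, which turns glucose 6-phosphate into fructose 6-phosphate, rose from 128 ± 8.49 to 159 ± 6.05 CPM (log2FC 0.31, adjusted p = 0.000242, edgeR). The phosphofructokinases, which catalyse the main controlled step, differed slightly: PFKL fell by 0.25 and PFKM by 0.14 on the log2 scale (adjusted p = 0.0101 and 0.0212, edgeR), and PFKP had a log2FC of -0.07 (95% interval -0.17 to 0.03, adjusted p = 0.237). The PFKM call was lost without DOX replicate 2 (log2FC -0.11, adjusted p = 0.051), and both calls were lost when libraries were scaled by their totals only. PFKM gave 52.9% of the family's level per kb in either group.

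The PFKFB enzymes set the level of fructose 2,6-bisphosphate, the strongest activator of phosphofructokinase. PFKFB2 gave 21.0, 19.1, 15.1 and 19.2 CPM untreated and 32.3, 32.7, 30.6 and 28.8 CPM with DOX. All treated libraries were above all untreated ones (log2FC 0.74, standard error 0.09, adjusted p = 1.08e-05, edgeR). PFKFB3, the most abundant of them per kb, and PFKFB4 were not called, with log2FC of -0.05 (95% interval -0.16 to 0.07) and 0.07 (-0.08 to 0.23). Within the summed level of the 3 genes per kb, the share of PFKFB2 went from 15.7% to 24.3%.

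Aldolase cleaves the 6-carbon sugar into a pair of 3-carbon ones. ALDOA, the form of muscle and most tumours (ENSG00000149925.20, chromosome 16, 30064164 to 30070457 on the plus strand), gave 831, 915, 1090 and 911 CPM untreated and 399, 374, 419 and 437 CPM with DOX. The highest treated library lay well below the lowest untreated one (log2FC -1.20, standard error 0.08, adjusted p = 6.43e-08, edgeR). ALDOC, the brain form, was near 1 CPM throughout, at 1.46 ± 0.14 CPM untreated and 0.97 ± 0.12 CPM with DOX (log2FC -0.58, adjusted p = 0.00194). A readthrough gene, AC093512.2, shares 42.3% of the ALDOA exon bases on the same strand, and its own level was 12.3 CPM without and 2.72 CPM with DOX. With its counts added to ALDOA the call stood.

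The middle of the lower pathway was the least changed. GAPDH gave 991, 1107, 1277 and 1049 CPM untreated and 1004, 970, 1084 and 1083 CPM with DOX. The groups overlapped, and the log2FC was -0.10 with a 95% interval from -0.24 to 0.05 (adjusted p = 0.259, edgeR). PGK1 and PGAM1, which follow it, had log2FC of -0.08 (-0.18 to 0.01) and 0.06 (-0.07 to 0.18), and neither was called. TPI1, which interconverts the 3-carbon sugars, fell by 0.22 on the log2 scale (adjusted p = 0.014), with overlapping groups. Scaled by library totals only, GAPDH and PGK1 turned to log2FC of 0.03 and 0.04, TPI1 lost its call and PGAM1 gained one (0.18, adjusted p = 0.0139).

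Enolase makes phosphoenolpyruvate. ENO1, the ubiquitous form, gave 1172, 1262, 1464 and 1249 CPM untreated and 697, 649, 737 and 726 CPM with DOX. It was lower in every treated library (log2FC -0.87, standard error 0.07, adjusted p = 3.08e-07, edgeR). ENO2, the neuronal form, fell likewise from 311 ± 14 to 198 ± 10 CPM (log2FC -0.65, adjusted p = 3.2e-07). The muscle form ENO3 had a log2FC of 0.17 (adjusted p = 0.0335), its groups overlapped, and the call was lost in 6 of the 8 fits that left out a single library. Per kb, ENO3 made up 4.21% of enolase in untreated cells and 8.04% with DOX.

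Pyruvate kinase closes the pathway. PKM (ENSG00000067225.18, chromosome 15, 72199029 to 72231822 on the minus strand) gave 860, 941, 1059 and 908 CPM untreated and 1944, 1729, 2024 and 2002 CPM with DOX. Every treated library exceeded every untreated one, and the log2FC was 1.03 (standard error 0.07, adjusted p = 8.69e-08, edgeR). Without untreated replicate 1 the log2FC was 0.98. The adult muscle and the tumour form of the enzyme are splice forms of this gene, and the counts per gene do not separate them.

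**Figure D3:**
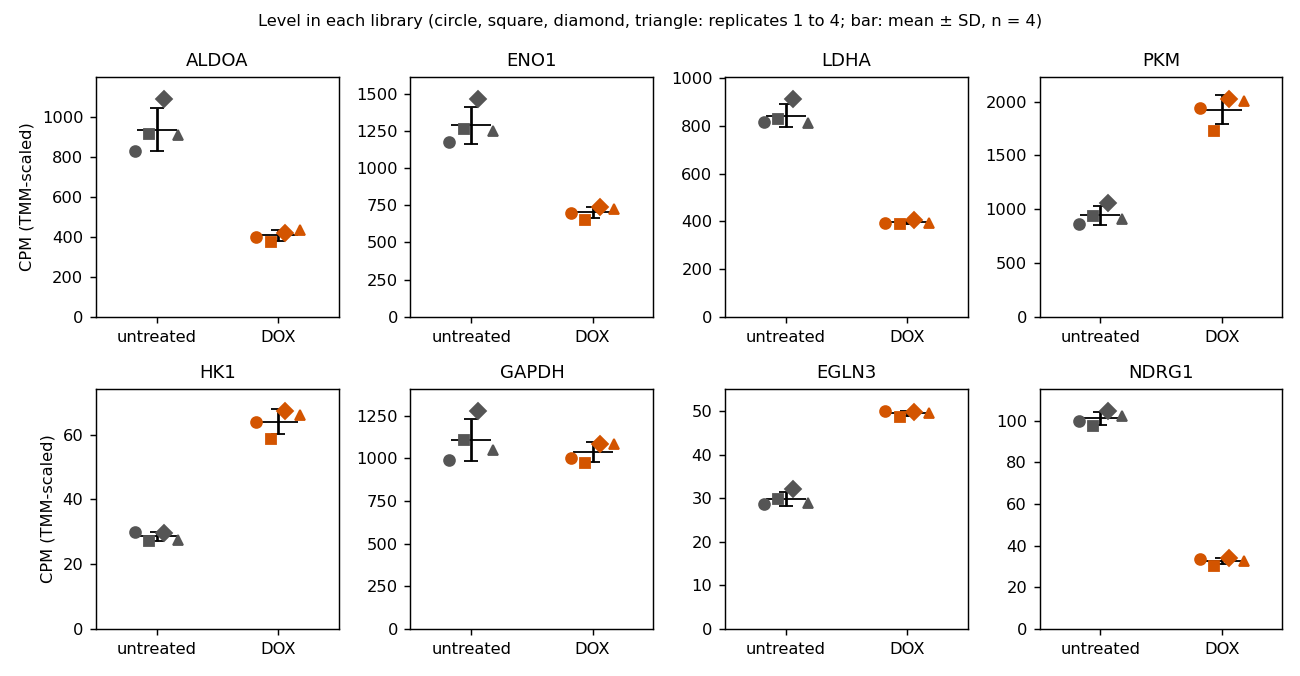
TMM-scaled CPM of 8 genes in each library (replicates 1 to 4 by symbol, bars at the mean ± SD, n = 4), each axis starting at 0. ALDOA, ENO1, LDHA and NDRG1 lie lower and PKM, HK1 and EGLN3 higher in all 4 treated libraries, whereas the GAPDH values overlap, and untreated replicate 3 (diamond) is the highest untreated library in most panels.

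Over the 18 glycolytic enzymes and lactate dehydrogenases, from HK1 to LDHB and without the PFKFB genes, 4 rose, 9 fell and 5 were not called, where all tested genes gave 38.5% higher and 38.1% lower. Their summed level was 7524, 8035, 9075 and 7863 CPM in untreated and 6927, 6548, 7302 and 7251 CPM in treated replicates 1 to 4. The treated libraries were all lower, with means of 7007 ± 348 and 8124 ± 669 CPM (SD, n = 4), and the sum was not tested. This separation depends on the TMM factors, which were 0.9383 to 0.9718 in the untreated and 1.038 to 1.052 in the treated libraries. Scaled by library totals only, the sums of the groups overlap. In 16 of these 18 genes untreated replicate 3 was the highest untreated library.

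Lactate dehydrogenase is built from LDHA and LDHB subunits, of which LDHA favours the making of lactate and LDHB its use. LDHA (ENSG00000134333.14, chromosome 11, 18394388 to 18408425 on the plus strand) gave 819, 831, 914 and 811 CPM untreated and 395, 391, 407 and 393 CPM with DOX. The treated libraries lay close together below all untreated ones (log2FC -1.09, standard error 0.05, adjusted p = 1.78e-09, edgeR). LDHB fell less, from 1170 ± 83.1 to 835 ± 26.7 CPM (log2FC -0.49, standard error 0.05, adjusted p = 6.37e-06). The LDHA to LDHB ratio of counts was 0.721 untreated and 0.475 with DOX, a log2 difference of -0.60 (two-sided exact permutation test, p = 0.0286). Per kb, LDHB made up 74.3% of the summed level without and 81.4% with DOX. Annotated LDHA pseudogenes held 1.54% to 1.98% of the counts of gene and pseudogenes together.

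Of the lactate exporters, SLC16A1 (the MCT1 transporter) gave 364, 332, 313 and 342 CPM untreated and 225, 239, 232 and 225 CPM with DOX. It was lower in all treated libraries (log2FC -0.55, standard error 0.05, adjusted p = 1.44e-06, edgeR). SLC16A3 (MCT4), the carrier of strongly glycolytic cells, was scarce, at 2.0, 2.21, 2.22 and 1.79 CPM untreated and 2.86, 2.37, 3.05 and 2.84 CPM with DOX. It rose without overlap (log2FC 0.44, standard error 0.12, adjusted p = 0.0046). SLC16A3 shares 5.36% of its exon bases with CSNK1D on the other strand, which stood at 143 CPM untreated and 215 CPM with DOX. Whether reads of CSNK1D were counted for SLC16A3 was not tested. SLC16A1 counts exceeded those of SLC16A3 by 164 times before and 82.8 times after DOX, a log2 difference of -0.99 (exact permutation test, p = 0.0286).

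The PDK kinases, which switch off pyruvate dehydrogenase, split in direction. PDK1 gave 64.5, 60.1, 53.0 and 62.7 CPM untreated and 37.3, 43.7, 37.5 and 39.1 CPM with DOX. It fell by 0.61 on the log2 scale, without overlap (adjusted p = 9.13e-06, edgeR). PDK2 fell by 0.39 (adjusted p = 0.000145), and shares 38.6% of its exon bases with SAMD14 on the other strand. PDK3 gave 10.3, 10.3, 8.25 and 11.4 CPM untreated and 16.7, 17.1, 15.4 and 15.0 CPM with DOX, a rise of 0.68 on the log2 scale (adjusted p = 2.91e-05). The PDK1 to PDK3 ratio of counts went from 6.0 to 2.45 (log2 difference -1.29, exact permutation test, p = 0.0286), the largest shift among the 7 isozyme ratios computed. Per kb, PDK2 remained the most abundant of the 3, with 59.7% and then 53.7% of the summed level. This order rests on the exon lengths used, 14883 bases for PDK1 and 5481 for PDK2. In mean CPM, PDK1 stood above PDK2 both untreated (60.05 against 49.18) and with DOX (39.39 against 37.5).

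All 7 ratios separated the groups, and so gave the same, smallest possible exact p of 0.0286. Benjamini-Hochberg adjustment over the 7 cannot change tied values. In 71.7% of all tested genes the groups did not overlap either, and a share for ratios of further gene pairs was not computed. The other ratios changed by -0.61 (ALDOA to ALDOC), -0.22 (ENO1 to ENO2) and 0.07 (PFKP to PFKM) on the log2 scale. The last of these is a change of 1.05-fold, which the libraries separated because their spread was small.

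Of 8 hypoxia-linked genes, 6 were tested, 2 rose, 2 fell and 2 were not called, shares close to the 38.5% higher and 38.1% lower of all genes. The rises were EGLN3 and ADM. ADM passed the filter through the treated libraries only, so its call could only be a rise. HIF1A gave 122 to 125 CPM in untreated replicates 1, 2 and 4 and 101 CPM in replicate 3, and averaged 118 ± 11.3 CPM untreated and 120 ± 3.81 CPM with DOX. Its log2FC was 0.03 with a 95% interval from -0.10 to 0.16 (adjusted p = 0.711, edgeR). HIF1A is regulated mainly at the level of its protein, which these libraries do not measure. VEGFA, the angiogenic factor, was likewise not called (log2FC 0.03, 95% interval -0.11 to 0.18, adjusted p = 0.688). Carbonic anhydrase CA9 had no count in any library, and ANKRD37 lay at 0.77 to 0.94 CPM untreated and 0.63 to 1.07 CPM with DOX.

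EGLN3, a prolyl hydroxylase that marks HIF subunits for destruction, gave 28.8, 29.9, 32.1 and 28.8 CPM untreated and 50.1, 48.7, 49.8 and 49.6 CPM with DOX. The treated libraries were nearly identical and all higher (log2FC 0.73, standard error 0.05, adjusted p = 5.09e-08, edgeR). ADM, the vasodilator peptide adrenomedullin (ENSG00000148926.10, chromosome 11, 10304680 to 10307397 on the plus strand), rose from 0.33, 0.25, 0.30 and 0.38 CPM to 1.18, 1.37, 1.23 and 1.54 CPM. Its log2FC of 2.07 (standard error 0.17, adjusted p = 4.38e-07) belongs to a gene that passed the filter through the treated libraries only, and was 1.96 without untreated replicate 2 and 1.99 without DOX replicate 4.

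NDRG1, a stress-responsive gene that MYC proteins are known to repress (ENSG00000104419.14), gave 99.8, 97.4, 104.7 and 102.3 CPM untreated and 33.4, 30.4, 33.8 and 32.7 CPM with DOX. It was the most strongly lowered of the 33 genes, at a log2FC of -1.63 (standard error 0.05, adjusted p = 6.63e-11, edgeR). BNIP3, which directs mitochondria to autophagy, gave 39.5, 34.5, 47.3 and 34.8 CPM untreated and 28.9, 32.3, 31.3 and 29.9 CPM with DOX (log2FC -0.35, adjusted p = 0.00448). Its pseudogenes held 1.54% to 3.34% of the counts of gene and pseudogenes together.

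Since MYC with MAX recognizes the E-box, the letters CACGTG, which read the same on both strands, were searched in RefSeq promoter windows from 250 bases before to 50 after each start (GRCh38.p14). Windows were found for 31 of the 36 genes. SLC2A3, PFKFB2, SLC16A1, VEGFA and NDRG1 had none. The hexamer stood in 9 of the 61 windows of these genes (14.8%), beside 7.26% of all 35116 windows. By gene, it stood in at least 1 window of 9 of the 31 genes (29%), beside 8.77% of all 27305 genes with windows. Those 27305 genes were neither limited to the genes tested here nor matched to the 31 in level. Genes with several starts have several windows, and the 31 genes had more per gene than the rest. LDHA has 2 windows, and both of its hexamers lie in the same one, the first of them upstream of the annotated gene. The matches of ALDOA and LDHA, the lowered enzymes with the largest falls, and those of HK2 and GAPDH, which were not called, are shown with the hexamer in capitals, each read 5′ to 3′ on the gene's strand.
ALDOA, chr16:30064373-30064402, plus strand, 112 bases before a start and in an annotated exon: tggcagggaggcCACGTGatccgagtcccc
LDHA, chr11:18394366-18394395, plus strand, 185 bases before the start: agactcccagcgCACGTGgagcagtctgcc
LDHA, chr11:18394464-18394493, plus strand, 87 bases before the start and in an annotated exon: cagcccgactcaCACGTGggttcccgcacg
HK2, chr2:74834964-74834993, plus strand, 194 bases before a start and in an intron: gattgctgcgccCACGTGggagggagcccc
HK2, chr2:74835009-74835038, plus strand, 149 bases before a start and in an intron: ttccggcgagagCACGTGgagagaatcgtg
GAPDH, chr12:6535171-6535200, plus strand, 81 bases before a start and in an intron: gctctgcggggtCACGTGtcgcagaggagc

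ALDOC, PFKFB3, PDK2, BNIP3 and ANKRD37 also held the hexamer. Of the 9 genes with it, 8 were tested, 5 fell (ALDOA, ALDOC, LDHA, PDK2 and BNIP3), none rose and 3 were not called, with a median log2FC of -0.37. Of the 22 genes with windows that lacked it, 21 were tested, 8 rose, 8 fell and 5 were not called, with a median of 0.03. ADM is among the 8 that rose. It passed the filter through the treated libraries only, so its call could only be a rise. Among all tested genes 38.5% were higher and 38.1% lower, and the shares among all genes with the hexamer were not computed. These counts are a description of few genes, chosen with earlier results of these data known, and were not tested. The cores of the hypoxia response element were searched on both strands. ACGTG, which lies inside the E-box hexamer as well, stood in 37.7% of the windows of these genes and 21.4% of all windows, and GCGTG in 41% and 36.5%.

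**Figure D4:**
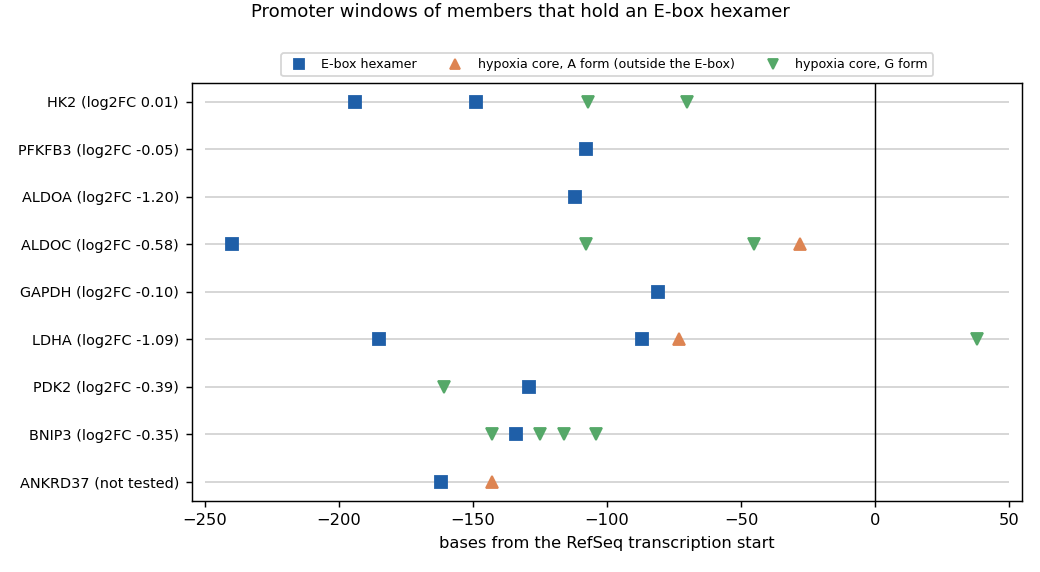
Positions of the E-box hexamer (squares) and of the 2 forms of the hypoxia core (triangles) in the promoter windows of the 9 genes that hold the hexamer, in bases from the RefSeq start, with each gene's log2 fold change. The hexamers lie between 240 and 81 bases before the start. Of the 8 genes tested, 5 fell and none rose, beside 38.1% lower and 38.5% higher among all tested genes.

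The surrounding pathway was read from lists of further genes, whose counts stand beside 38.5% higher and 38.1% lower among all tested genes. Of 13 tested genes of other hexose carriers and glycogen handling, 11 rose and 1 fell, with a median log2FC of 0.86 beside 0.01 for all genes. SLC2A13, a myo-inositol carrier of this family, rose from 2.14, 1.61, 1.28 and 1.86 CPM to 19.0, 20.9, 19.6 and 17.0 CPM (log2FC 3.47, adjusted p = 3.41e-10, edgeR). Of the glycogen phosphorylases, PYGB is the gene of the list that fell (218 ± 5.99 to 172 ± 5.54 CPM, log2FC -0.34), while PYGL rose (57.3 ± 3.01 to 83.4 ± 2.97 CPM, log2FC 0.54). PYGB and PYGL were chosen after their values were seen. PYGM went from 0.62 ± 0.04 to 2.36 ± 0.38 CPM and passed the filter through the treated libraries only, so its call, 1 of the 11, had to be a rise. Of 13 further tested genes of glycolysis and gluconeogenesis, 4 rose and 8 fell (median -0.22). GPD1, which diverts a glycolytic intermediate to glycerol 3-phosphate, rose from 2.06, 2.54, 2.44 and 2.56 CPM to 126, 117, 133 and 128 CPM (log2FC 5.71, standard error 0.08, adjusted p = 1.44e-13).

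Among 16 tested genes of pyruvate and lactate handling, 7 rose and 3 fell (median log2FC 0.18). PDP1, the phosphatase that switches pyruvate dehydrogenase back on and so opposes the PDK kinases, rose from 29.1, 26.6, 22.9 and 25.2 CPM to 408, 434, 413 and 402 CPM (log2FC 4.00, standard error 0.07, adjusted p = 1.32e-12, edgeR). EMB, an accessory protein of monocarboxylate transporters, fell from 55.2 ± 5.88 to 17.8 ± 1.14 CPM (log2FC -1.63, adjusted p = 4.46e-09). In the pentose phosphate branch, 3 of 8 tested genes rose and 3 fell (median -0.05), with TKT and PGD lower by 0.70 and 0.62 on the log2 scale. MLXIPL, the glucose-sensing transcription factor ChREBP, rose from 2.45, 2.19, 2.58 and 2.51 CPM to 87.9, 76.5, 90.0 and 85.0 CPM (log2FC 5.13, standard error 0.08, adjusted p = 3.41e-13). In its network 5 of 6 tested genes rose and 1 fell (median 0.46). Among its target genes, ARRDC4 rose from 4.28 ± 0.08 to 8.01 ± 0.53 CPM (log2FC 0.90) and TXNIP, chosen after its values were seen, fell from 14.8 ± 0.64 to 12.2 ± 0.24 CPM (log2FC -0.28, adjusted p = 0.000452, edgeR).

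Of 16 tested genes of oxygen sensing 5 rose, 3 fell and 8 were not called, and their median log2FC was 0.09. EPAS1, the HIF2A subunit, rose from 20.6, 19.7, 18.9 and 20.4 CPM to 36.4, 42.0, 33.7 and 36.5 CPM (log2FC 0.90, adjusted p = 1.73e-07, edgeR), and SIAH1, a ubiquitin ligase of the pathway, fell by 0.57. Of 30 other tested hypoxia-linked genes 13 rose and 12 fell, with a median of -0.01. DDIT4, an inhibitor of mTORC1 signalling, fell from 234 ± 13.4 to 84.0 ± 10.3 CPM (log2FC -1.48, adjusted p = 1.34e-08), and SLC6A8, the creatine carrier, rose from 6.21 ± 0.77 to 16.9 ± 1.11 CPM (log2FC 1.44, adjusted p = 3.74e-08).

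**Figure D5:**
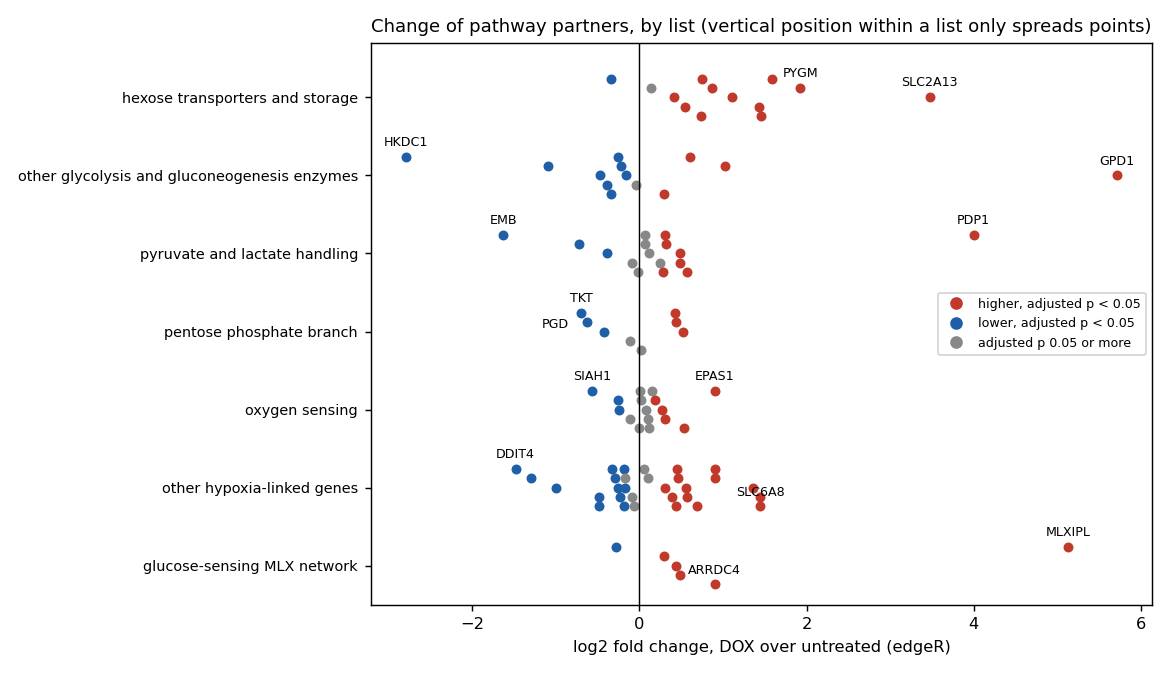
Each point is the log2 fold change of 1 tested gene of the pathway lists, DOX over untreated, coloured by its call. The hexose carrier and storage genes lie mostly right of 0 (11 of 13 rose, beside 38.5% of all tested genes). PYGM, 1 of the 11, passed the filter through the treated libraries only, so its call had to be a rise. The oxygen sensing and hypoxia-linked lists spread around 0, and GPD1 (5.71), MLXIPL (5.13), PDP1 (4.00), SLC2A13 (3.47) and HKDC1 (-2.79) lie farthest out.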

How the data were processed

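PolyA+ RNA of 8 libraries was sequenced from a stranded kit. After trimming (Trim Galore) and alignment to GRCh38 with GENCODE 32 annotation (STAR), the authors deposited RSEM expected counts per gene, not normalized. The strand setting of RSEM is not given in the sources used here. Counts were rounded, scaled by TMM and tested with edgeR 4.0.16 in R 4.3.3 (quasi-likelihood, no covariates, 4 against 4) over the 15222 genes above 1 CPM in at least 4 libraries. The standard error is the absolute log2FC over the square root of F, and 95% intervals use the normal quantile. Isozyme ratios used a pseudocount of 0.5 counts, and 7 of 8 planned ratios were computed, since SLC2A3 stayed at or below 3 counts. The samples are independent biological replicates per the study's methods. Coordinates and exon lengths come from GENCODE 29, which holds 99.3% of the tested identifiers. The models were tested on simulated data. The 36 genes and all lists were chosen with earlier results of these data known. Named list genes are the 2 largest called, non-overlapping changes per list and those past the study's cut. A count of 3 was treated as the floor, at most 0.0781 CPM, which covers counting error only. Alternatives were DESeq2 1.42.0, other scalings, tests and filters, a replicate block, pseudogene counts and each library left out. Adding overlapping genes was chosen after seeing the data.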

Additional observations from a re-analysis of the deposited data

Results flagged for a closer look

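In 4 of 82 groups of 4 libraries, 1 library lay far from the other 3 by Dixon's criterion, where chance gives about 4.1. PFKL was 60.1 CPM in DOX replicate 2, against 70.8 to 71.8 CPM in the other treated libraries. HIF1A was 101 CPM in untreated replicate 3, against 122 to 125 CPM. The log2 ratio of ENO1 to ENO2 was 2.16 in untreated replicate 3, against 1.99 to 2.02. The log2 ratio of SLC16A1 to SLC16A3 was 6.65 in DOX replicate 2, against 6.24 to 6.30.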

How the results depend on the processing

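All 33 genes kept direction and call with DESeq2's size factors, DESeq2's Wald test, edgeR's likelihood ratio test, and pseudogene or overlapping-gene counts added. With pseudogene counts SLC2A3 passed the filter too, making 10 genes higher. Scaling by library totals shifted the median log2FC of all genes by 0.127 and the share of calls that were higher from 50.3% to 60.3%. It turned PFKP (0.056), PFKFB3 (0.078), GAPDH (0.032) and PGK1 (0.043), ended the calls of PFKL (-0.12), PFKM (-0.01) and TPI1 (-0.09) and made calls of PFKFB4 (0.20) and PGAM1 (0.18). Without a filter on low counts HK2 was at -0.017, ENO3 lost its call (0.14, adjusted p = 0.0786, edgeR), and genes past the study's cut numbered 2097 in place of 1084. With more than 4 libraries above 1 CPM they numbered 562, and of the 36 genes 0 passed, since ADM was not tested.

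With each library left out, 8 to 9 genes were higher, 14 to 16 lower, 2 to 3 above a log2FC of 1, 3 to 3 below -1 and 0 to 1 past the study's cut, the last being 0 without untreated replicate 2 or DOX replicate 4. HK2 (-0.035 to 0.061), HIF1A (-0.043 to 0.051) and VEGFA (-0.011 to 0.082), none of them called, changed sign, and PGK1 was called without untreated replicate 1 (-0.12, adjusted p = 0.0487, edgeR). The ratio differences ranged from -1.21 to -1.12 (HK2 to HK1), 0.051 to 0.080 (PFKP to PFKM), -0.65 to -0.55 (ALDOA to ALDOC), -0.24 to -0.18 (ENO1 to ENO2), -0.62 to -0.59 (LDHA to LDHB), -1.08 to -0.92 (SLC16A1 to SLC16A3) and -1.33 to -1.25 (PDK1 to PDK3). Causes were not tested.

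Same-numbered samples correlated by 0.20, 0.18, 0.31 and -0.24 in their deviations from the group means. These values were not set beside those of differently numbered samples, so they cannot show whether the numbers pair the samples. With the replicate block all 33 calls stood, and 11805 genes were called in place of 11661. Paired ratio differences were -1.15, 0.069, -0.61, -0.22, -0.60, -0.99 and -1.29 in the same order, each with an exact sign-flip p of 0.125, the smallest that 4 pairs can give. SLC2A3, CA9 and ANKRD37 were not tested. CA9 had 0 counts in all libraries, and SLC2A3 is limited by the division of reads with its pseudogene.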

Other observations

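Transcripts often used as references moved as well. ATP5PO, a subunit of ATP synthase and the study's reference in PCR, rose from 116 ± 14.5 to 170 ± 7.05 CPM (SD, n = 4; log2FC 0.55, adjusted p = 4.73e-05, edgeR). B2M, the light chain of MHC class I, rose by a log2FC of 1.31 and RPLP0, a ribosomal protein, fell by 0.68 on the log2 scale. ACTB had a log2FC of 0.02 (adjusted p = 0.782). Of the 6 reference transcripts listed, 2 rose, 2 fell and 2 were not called, beside 38.5% higher and 38.1% lower among all tested genes.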
